A study of Mus musculus with 2 samples.

Results

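The interleukin-1 (IL-1) family and its receptors were read in primary osteoblasts of wild-type and Slc39a13-KO mice. The 8 members were set by symbol: the ligands Il1a, Il1b, Il18 and Il33, the antagonist Il1rn, and the receptor chains Il1r1, Il1rl1 and Il1rap. A probe set, a group of short oligonucleotides for a transcript, was taken for a member if the platform annotation gave it exactly 1 gene symbol and that symbol was the member's. This gave 14 probe sets for 7 members, of 45101 probe sets and 18193 named genes on the array. Il1rl1 had no probe set of this kind and was not analysed here.

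Both samples were osteoblasts released enzymatically from newborn calvaria, the bones of the skull roof, and grown in medium with fetal calf serum, with no cytokine treatment given in the labels. One culture was wild-type. The other was homozygous for a targeted Slc39a13 allele, in which a Neo cassette replaced exons that encode the conserved motif of this zinc transporter family, in mice derived from R1 embryonic stem cells. The knockout was not restricted to osteoblasts, and no strain, sex or number of pups was stated for these cultures in the labels or methods read here. There was 1 array per genotype. A difference is therefore one between 2 arrays, with no replicate check and no p-value.

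Ligands of this family are alarm cytokines of tissue damage and infection. Interleukin-1α and interleukin-1β bind the receptor Il1r1, which then recruits the accessory chain Il1rap, and the adaptor Myd88 carries the signal to the Irak kinases and to NF-κB. The antagonist Il1rn occupies Il1r1 without bringing in Il1rap. Interleukin-33 signals through Il1rl1 together with the same accessory chain, and interleukin-18 through a receptor pair of its own. In bone, interleukin-1 acts on osteoblasts to promote the formation of osteoclasts, and in cartilage it promotes breakdown of the matrix.

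The promoters of the members with the largest differences between the arrays are shown because these members differed in opposite directions. Each is a window of 300 bases, from RefSeq on GRCm38.p6, that ends shortly after a transcription start of the gene. Capitals mark the AP-1 motif TGANTCA. Il1rn has 3 such windows, of which 2 overlap, and 1 of those 2 is shown beside the upstream one. Il33 has 2 windows, of which the upstream one is shown.
Il1rn, upstream start (chr2:24336610-24336909, + strand): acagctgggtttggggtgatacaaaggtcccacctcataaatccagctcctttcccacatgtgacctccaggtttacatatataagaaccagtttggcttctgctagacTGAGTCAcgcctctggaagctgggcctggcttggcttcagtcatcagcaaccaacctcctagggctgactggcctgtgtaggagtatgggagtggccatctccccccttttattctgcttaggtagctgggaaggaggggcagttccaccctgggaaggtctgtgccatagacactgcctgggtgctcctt
Il1rn, downstream start (chr2:24345041-24345340, + strand): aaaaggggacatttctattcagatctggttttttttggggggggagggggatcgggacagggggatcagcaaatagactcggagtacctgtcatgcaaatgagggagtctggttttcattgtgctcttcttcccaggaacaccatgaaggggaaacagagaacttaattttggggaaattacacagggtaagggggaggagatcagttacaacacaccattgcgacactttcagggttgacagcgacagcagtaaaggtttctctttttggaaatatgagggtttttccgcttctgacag
Il1rap (chr16:26581455-26581754, + strand): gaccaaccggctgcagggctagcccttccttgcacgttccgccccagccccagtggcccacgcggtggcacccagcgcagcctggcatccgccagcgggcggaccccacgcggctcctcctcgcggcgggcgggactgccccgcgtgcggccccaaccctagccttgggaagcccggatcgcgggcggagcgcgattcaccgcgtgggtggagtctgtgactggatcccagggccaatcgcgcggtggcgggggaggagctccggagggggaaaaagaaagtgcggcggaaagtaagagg
Il33, upstream start (chr19:29924863-29925162, + strand): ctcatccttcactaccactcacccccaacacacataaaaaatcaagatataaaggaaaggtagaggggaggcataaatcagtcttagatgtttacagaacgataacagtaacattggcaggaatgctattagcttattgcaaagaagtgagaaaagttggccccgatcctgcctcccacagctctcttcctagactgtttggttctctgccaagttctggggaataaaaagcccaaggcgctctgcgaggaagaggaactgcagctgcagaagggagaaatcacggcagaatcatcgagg

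Both strands were searched for AP-1 and for the κB consensus, the binding motif of NF-κB. The upstream Il1rn window held an AP-1 match beginning at position -141, with 0 at the start base. The windows shown for Il1rap and Il33, and the other window of Il33, held neither motif. Among the 7 members with probe sets, 2 had an AP-1 match, Il1rn and Il1a, and 1 had a κB match, Il1r1 at its downstream start. Over all 27025 genes with a promoter, 8.97% had an AP-1 match and 9.55% a κB match (7.81% and 8.46% of single windows). A match is a description of letters and not a site of binding.

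Signals are MAS5 intensities, brought to a common trimmed mean in both arrays. Signals below a floor of 85.1, the median of both arrays pooled, were treated as not measured and raised to that floor, and a difference against the floor is a bound. Calls needed a mean over the measured probe sets of at least 2-fold, with every measured probe set on the same side of 0. Of 12269 genes measured in this way, 8.01% were called higher in the Slc39a13-KO array and 5.93% lower, with a median log2 ratio of 0.11. These are 983 and 727 genes, a split that became 654 and 1052 with median scaling and 5862 and 228 when the arrays were scaled on the poly-A controls, probe sets for bacterial RNAs that are usually spiked in. The signal of Slc39a13 itself, read by 1 probe set, was 1309 for wild-type and 90.4 for Slc39a13-KO, which goes with the labels. Whether that probe set lies in the removed exons was not established here.

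Among the IL-1 family members the antagonist and the chains of the IL-1 receptor had higher signals in the Slc39a13-KO array, and Il33 had a lower one. Of 7 members with probe sets, 6 passed the floor, 4 of these were called higher (Il1rn, Il1rap, Il1r1 and Il18), 1 lower (Il33) and 1 was not called (Il1b). Il1a lay below the floor in both arrays. The median log2 ratio of the 6 was 1.11. Over all measured genes 8.01% were called higher and 5.93% lower. A member that passes the floor in 1 array only has to differ, and this was the case for Il33, while the other 5 were above the floor in both arrays.

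Il1rn, which encodes the interleukin-1 receptor antagonist, was read by 3 probe sets that were all higher in the Slc39a13-KO array. The first, 1423017_a_at, read 579 for wild-type and 4057 for Slc39a13-KO. The second, 1425663_at, had 638 and 2236. The third, 1451798_at, had 1073 and 4460. All 3 were well above the floor in both arrays. The mean log2 ratio was 2.22 (SD 0.52 between 3 probe sets on the same arrays), a 4.67-fold difference, and single probe sets ranged from 1.81 to 2.81. Over the whole array 185 of 12269 measured genes had a ratio at least as high. The gene has the upstream and downstream starts shown above, and the signals do not say from which of them the transcripts came.

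Il1rap, the accessory chain shared by the receptors for interleukin-1 and interleukin-33, differed by about as much. Of its 5 probe sets, 3 were above the floor in both arrays and 2 below it in both. The measured ones had signals of 118 and 725 (1421843_at), of 411 and 2029 (1421844_at) and of 133 and 452 (1449585_at), in each case lower in wild-type. The mean log2 ratio was 2.23 (SD 0.43 between 3 probe sets), a 4.70-fold difference, from 3.41-fold to 6.16-fold by probe set. A ratio at least as high was found for 183 measured genes. The probe sets below the floor, with signals of 3.93 and 39.6 and of 6.43 and 47.4, give no usable ratio.

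Il1r1, the signalling receptor that binds interleukin-1α, interleukin-1β and the antagonist, was higher by a smaller amount. Its measured probe set, 1448950_at, read 199 for wild-type and 445 for Slc39a13-KO, a log2 ratio of 1.16 and a 2.24-fold difference. Its other probe set, 1459777_at, lay far below the floor in both arrays, at 3.55 and 1.75. A ratio at least as high was found for 714 measured genes. The value therefore rests on 1 probe set and lies close to the threshold. With median, quantile or loess scaling of the arrays it was 0.92, 0.98 or 0.95 on the log2 scale and not called. It was 0.07 with no floor, where the dim probe set entered the mean, and 0.48 with the floor at the 70th percentile, so the call of Il1r1 depends on these choices.

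**Figure D1:**
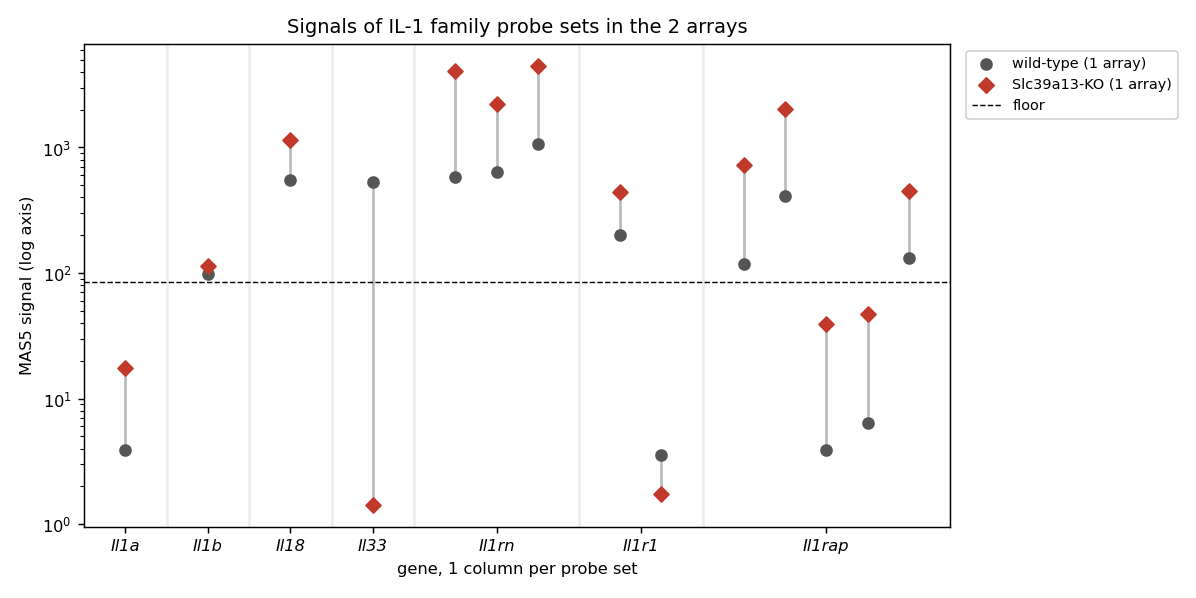
MAS5 signals (vertical, log axis) of the 14 probe sets of IL-1 family genes, 1 column per probe set, with grey circles for the wild-type array, red diamonds for the Slc39a13-KO array and a dashed line at the floor of 85.1. All 3 probe sets of Il1rn and the 3 measured ones of Il1rap are higher in Slc39a13-KO. Il33 reads 529 in wild-type and lies below the floor, at 1.42, in Slc39a13-KO, so its difference is a bound. Il1a lies below the floor in both arrays.

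The ligands did not share a direction. Il33, a nuclear alarm cytokine of stromal, endothelial and epithelial cells, was read by 1 probe set, 1416200_at. It read 529 for wild-type and 1.42 for Slc39a13-KO. Against the floor this is at least 6.21-fold lower, a log2 ratio of -2.64. The ratio of the raw signals has no meaning at such a low value, and with the floor at the 70th percentile, a signal of 319, the bound shrank to -0.73 and Il33 was not called.

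Il18, a cytokine that induces interferon-γ, read 553 for wild-type and 1146 for Slc39a13-KO. The log2 ratio was 1.05, a 2.07-fold difference from 1 probe set, and 883 measured genes had a ratio at least as high. The value is barely past the threshold, and under median scaling it dropped to 0.81, and under quantile and loess scaling to 0.98, none of which was called. Probe sets of 1 gene differed on these arrays by a median SD of 0.34 on the log2 scale, with a 90th percentile of 0.75. This spread is between probe sets on the same 2 arrays and does not measure variation between replicate cultures.

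The classical ligands were near or below the floor. Il1b, the main secreted form of interleukin-1, had signals of 97.6 and 113, both close to the floor, a log2 ratio of 0.21. Its sign turned with median and with quantile scaling (-0.03 in both). Il1a, which also acts from within the nucleus, had signals of 3.87 and 17.6, so that the arrays give no order for it. The antagonist and both receptor chains were thus measured in cultures where neither of these ligands stood clearly above the floor.

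**Figure D2:**
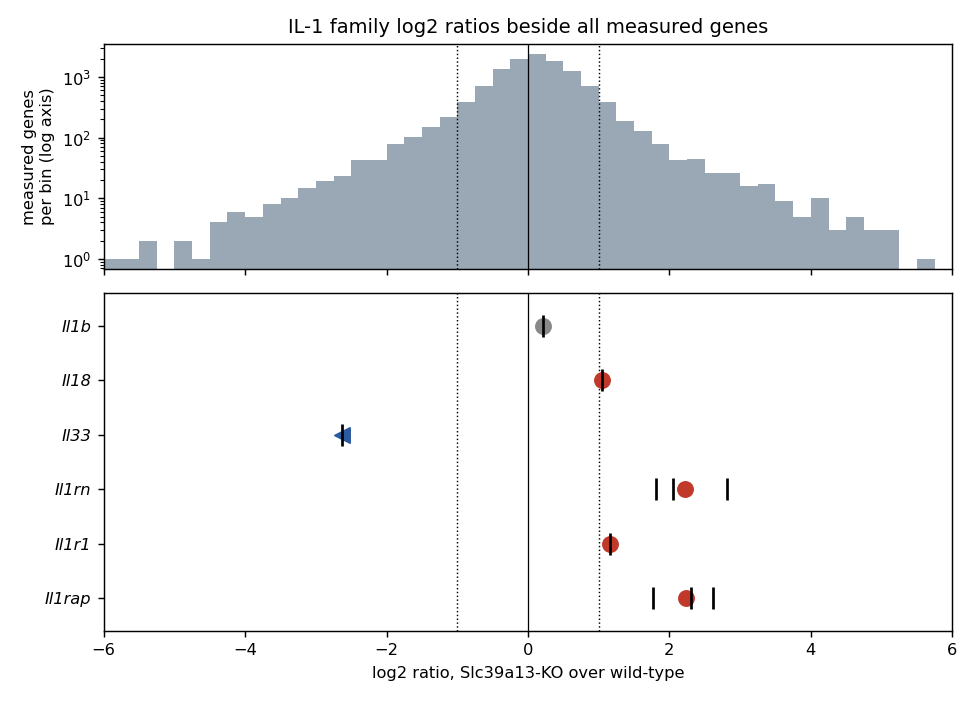
Upper panel, number of measured genes (log axis) in bins of the log2 ratio (knockout over wild-type); lower panel, the ratio of each measured IL-1 family gene on the same axis, with black ticks for single probe sets, dotted lines at the 2-fold threshold, red for called higher, blue for called lower, grey for not called and a triangle for a bound. Il1rn and Il1rap lie near 2.2, Il1r1 and Il18 just past the threshold, and Il33 at -2.64 on the opposite side.

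The other ligands and receptors of the family were mostly near or below the floor, apart from 1 probe set of Il1rl2. Of 12 with a probe set, 7 passed the floor, with a median log2 ratio of 0.08. Of these 7, 0 were called higher and 1 lower, against 8.01% and 5.93% of all measured genes. The gene called was Il1rl2, the receptor for the interleukin-36 cytokines, at least 2.03-fold lower, but its 2 probe sets disagreed, with signals of 357 and 101 for the first and of 99.5 and 67.9 for the second. The first carries a suffix for transcripts shared with other genes, and without it the call was lost. Il18rap, the accessory chain for interleukin-18, had signals of 93.6 and 135. Il1f10 had 140 and 167, and Sigirr, an inhibitory receptor, had 115 and a value below the floor. Il36a, Il36b and Il36g, the interleukin-36 ligands, were below the floor in wild-type and at 101, 87.8 and 90.1 in Slc39a13-KO. The decoy receptor Il1r2, the binding chain Il18r1, the soluble inhibitor Il18bp, and Il1rapl1 and Il1rapl2 were below the floor in both.

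Most genes that mature or release these cytokines were also faint or close between the arrays. Of 15 with a probe set 8 were measured, 1 of them was called higher and 0 lower, against 8.01% and 5.93% of all measured genes. The median log2 ratio of the 8 was -0.37. Casp1 and Casp4, the inflammatory caspases, and the sensors Nlrp3 and Aim2 were below the floor in both arrays. Of these, Casp4, with 78.8 and 9.63, and Nlrp3, with 83.8 and 14.4, lay only just under the floor in wild-type. Pycard, the adaptor of the inflammasome, was called higher. It was below the floor in wild-type at 54.9 and had 467 in Slc39a13-KO, at least 5.49-fold higher by 1 of its 3 probe sets, the other two being below the floor in both. Gsdmd, the pore-forming gasdermin, had signals of 413 and 223, and the calpain Capn2 8656 and 6088, and neither was called.

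Genes of the signalling chain below the receptor were measured almost throughout and differed little. Of 24 measured, 2 were called higher and 1 lower, 8.33% and 4.17%, against 8.01% and 5.93% of all genes. The median log2 ratio of 0.03 was below 0 with median, quantile and loess scaling, with the floor at the 70th percentile, without suffixed probe sets and with the brightest probe set. Myd88, the adaptor of the receptor, had signals of 998 and 1176, and Rela, an NF-κB subunit, 2130 and 1934. Irak2, a kinase next to Myd88, was called lower with 560 and 276, a 2.03-fold difference from 1 probe set. Its log2 ratio of -1.02 is barely past the threshold. With poly-A scaling or the floor at the 70th percentile 0 signalling genes were called lower, so the call of Irak2 was lost there. Tab2, which links Traf6 to the kinase Map3k7, was called higher with 1905 and 4577, a 2.40-fold difference (log2 ratio 1.26, SD 0.45 between 2 probe sets). Its brighter probe set alone, with 4153 and 8023, gave 1.93-fold, and with that choice the call of Tab2 was lost. Map2k6, a kinase that activates p38, was below the floor in wild-type and had 315 in Slc39a13-KO, at least 3.70-fold higher. Irak4, Chuk and Nfkb1 had no named probe set here.

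Genes known to respond to interleukin-1 in connective tissue cells were mostly lower in the Slc39a13-KO array. Of 23 measured, 12 were called lower (52.2%) and 2 higher (8.70%), against 5.93% and 8.01% of all measured genes. The median log2 ratio was -1.12 against 0.11 over all measured genes. Of the 12 called lower, 6 were above the floor in both arrays and 6 are bounds. The list was drawn up with earlier results on inflammatory genes of these arrays known, and most of its genes also respond to other signals. The poly-A controls were lower in Slc39a13-KO for 27 of 27 probe sets. When they set the scale, 7 of 23 response genes were called lower and 4 higher, against 1.77% and 45.6% of all measured genes. The median of the list was then -0.15 against 0.94 for all genes.

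Secreted signals were among the genes called lower, and the order among genes at the floor in Slc39a13-KO is not known. The chemokines Ccl2, with 2360 in wild-type, and Ccl7, with 1413, were not above the floor in the Slc39a13-KO array, which makes them at least 27.7-fold and 16.6-fold lower. Il6, with 1194 in wild-type, was likewise below it, at least 14.0-fold lower. Ptgs2, the inducible cyclooxygenase, was 5.44-fold lower, from 3123 to 275 by 1 probe set and from 515 to 197 by the other. Mmp3, the protease stromelysin, was at least 4.93-fold lower. Ptges, the prostaglandin E synthase next to Ptgs2, was at least 3.60-fold and Adamts5, a protease that cleaves aggrecan, 4.21-fold lower. Of the others called lower, Tnfaip6 was at least 3.37-fold lower, and Tnfaip3, Cxcl5, Cxcl1 and Saa3, all above the floor in both arrays, ranged from 2.17-fold for Tnfaip3 to 3.76-fold for Saa3. Of the 3 probe sets of the chemokine Cxcl1, 1 hardly differed, with signals of 974 and 821.

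The genes called higher were Lcn2, a siderophore-binding protein, and Tnfsf11, the osteoclast differentiation factor RANKL. Lcn2 was below the floor in wild-type and had 1642 in Slc39a13-KO, at least 19.3-fold higher. Tnfsf11 was also below it and had 198, at least 2.33-fold higher. The adhesion molecules Icam1, with 805 and 748, and Vcam1, with 1594 and 1013, were not called. A κB match was present in the promoters of 7 of the 19 response genes that had a promoter, against 9.55% of all genes. Of the signalling genes, 6 of 22 had such a match. The response genes were listed because they are known to respond to interleukin-1. Their share may therefore follow from that choice and is no result of these arrays.

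**Figure D3:**
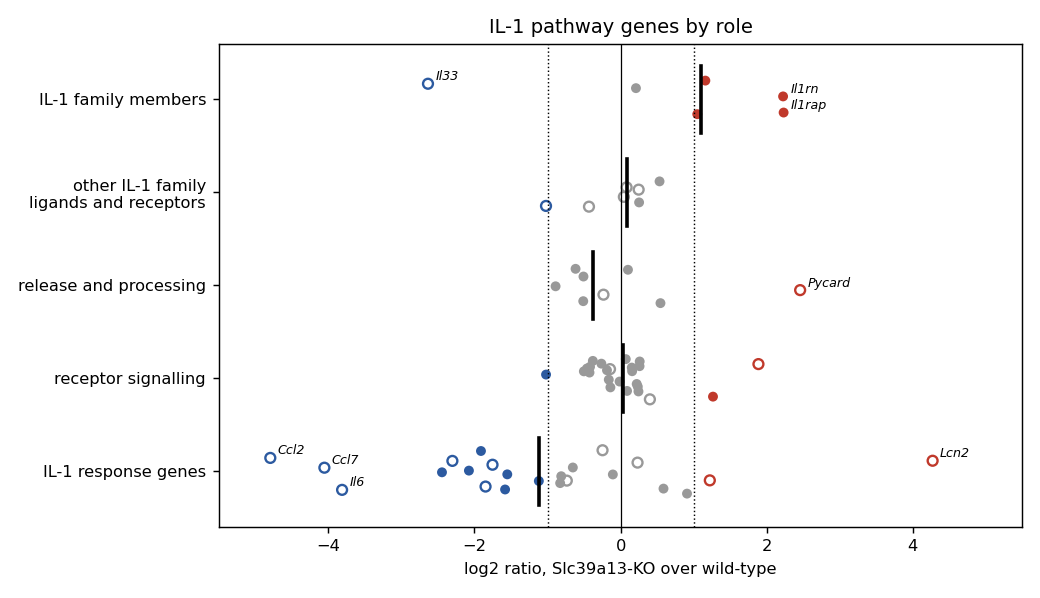
Ratios between the arrays (horizontal axis, log2, knockout over wild-type) for the measured genes of 5 groups, each point 1 gene (shifted vertically at random for legibility), filled if above the floor in both arrays and open if a bound, red if called higher, blue if called lower and grey otherwise, with a black bar at the group median and dotted lines at the 2-fold threshold. Response genes have a median of -1.12, while signalling genes gather around 0.03.

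Markers of other cell types also differed between the arrays, in directions that depended on the type. Of 12 measured macrophage markers 7 were called higher in the Slc39a13-KO array and 0 lower, against 8.01% and 5.93% of all measured genes. Of these 7 calls 6 are bounds, and a marker at the floor in wild-type could not be called lower. The summed signal of the brightest probe set of all 14 was 906 in wild-type and 4848 in Slc39a13-KO. Lyz2 had 255 and 2146 and Csf1r 183 and 303, but Ptprc, the pan-leukocyte antigen, and Itgam were below the floor in both. Of 11 chondrocyte markers all 11 were called higher, 8 of them as bounds, with summed signals of 3565 and 124263. The part of these markers' cells in the values of the members and of the response genes was not tested. Of 10 smooth muscle markers 7 were called lower, 3 of them as bounds, and 1 higher. Their summed signals were 79361 and 32062, and their part was likewise not tested. In RNA of a whole culture, fewer cells of a type and less RNA per cell cannot be told apart.

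Markers of the osteoblast itself differed widely in level. The type I collagen genes Col1a1 and Col1a2 were bright, with 12230 and 7655 and with 28503 and 25943 as means over probe sets on the log2 scale. The 2 probe sets of Col1a1 disagreed, with log2 ratios of -1.40 and 0.05, and the brighter one read 27133 and 28006. Neither gene was called. Pth1r, the parathyroid hormone receptor, was called higher, with 295 and 1534, a 5.20-fold difference. Dlx5, a homeobox factor of the lineage, had 191 and 279 and was not called. Sp7, the transcription factor of committed osteoblasts, was near the floor at 94.8 and 153, Alpl was called higher, from below the floor in wild-type to 197 in Slc39a13-KO, and Ibsp was below it in both. Runx2, Bglap and Spp1 had no named probe set here. Of 6 measured osteoblast markers 2 were called higher and 0 lower, against 8.01% and 5.93% of all measured genes. The summed signals of the list, 61203 and 65582, consist almost wholly of the collagens.

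The choice of scaling decided how many members were called. With median, quantile or loess scaling 2 members were called higher, Il1rn and Il1rap, in place of 4, because Il1r1 and Il18 came to lie under the threshold. Il1rn ranged from 1.93 to 3.24 on the log2 scale and Il1rap from 1.33 to 3.21 over the 9 alternatives, and both were called higher in all of them. Il33 was called lower in 8 of 9. With poly-A scaling the median of all genes was 0.94, so the values of 2.18 for Il1r1 and 2.07 for Il18 with that scaling are to be read against it.

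**Figure D4:**
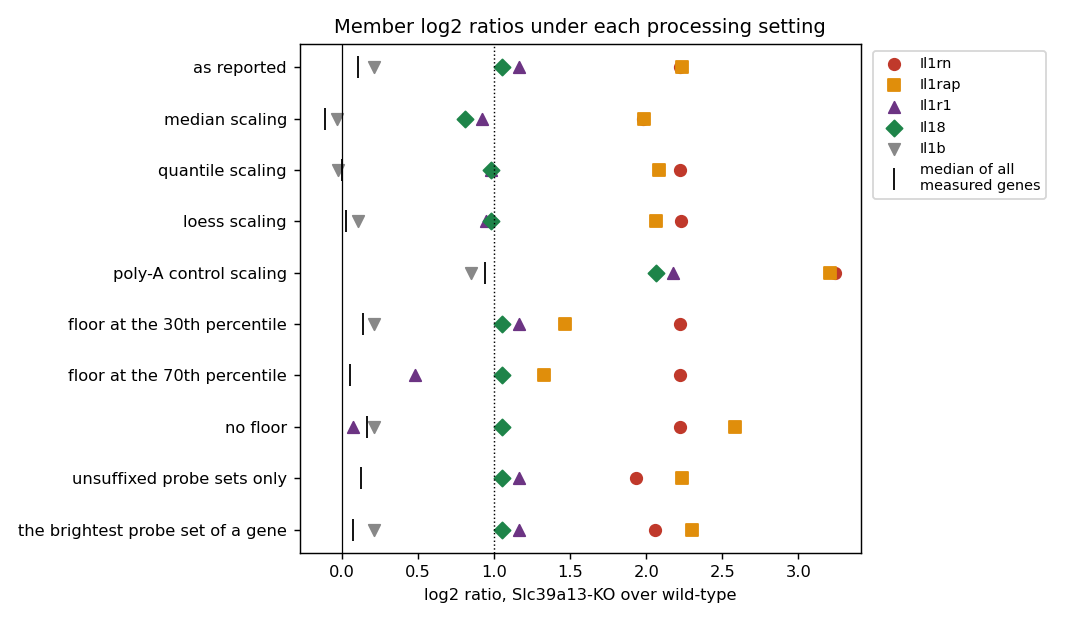
Ratios between the arrays (horizontal axis, log2, knockout over wild-type) of 5 IL-1 family genes as reported and under 9 alternatives, 7 for Il1b, with the dotted line at the 2-fold threshold and a black tick for the median of all measured genes. Il1rn and Il1rap stay right of the dotted line throughout, Il1r1 and Il18 lie on either side of it, and with poly-A scaling the points, and the median tick at 0.94, move right together; Il33, at -2.64, is not drawn.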

How the data were processed

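Biotin-labelled target from total RNA of each genotype was put on 1 Affymetrix mouse array. The deposited values are linear signal intensities per probe set that the authors computed with MAS5, per the labels; its version was not stated. The methods of the study name gcRMA for its own analysis, but the deposited intensities have 2% trimmed means of 500.003 in both arrays, as MAS5 scaling gives. Total mRNA per cell can therefore not be compared. Detection calls were not used.

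Of 45101 probe sets per array, 34945 had 1 gene symbol, and 34741 of these were matched by gene ID to RefSeq (GRCm38.p6), used for names. Probe sets with several symbols (932) or none (9160) and controls (64) were left out. Signals were scaled to a common trimmed mean, raised to a floor, the 50th percentile of both arrays together, and put on the log2 scale. A gene took the mean over probe sets above the floor in at least 1 array. With 1 array per genotype no test was possible. The number of arrays limits the precision. Alternatives were 4 scalings, 3 floors and 2 choices of probe sets. Calling was checked on simulated arrays, with planted differences well past the threshold in genes well above the floor. That check did not cover planted differences that are bounds or lie near the threshold, or variation between cultures.

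The members and gene lists were chosen with earlier results of these data known. All members were named, and of each pathway list up to 5 called genes in each direction by size; any further gene was chosen after seeing its values. Python 3.11.15, numpy 2.4.6, pandas 2.3.3, scipy 1.17.1 and statsmodels 0.14.6 (loess, span 0.3) were used.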

Additional observations from a re-analysis of the deposited data

How the results depend on the processing

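Of 135 counts and medians recomputed for the members and the 4 pathway groups, 94 stayed within 1.5 times the reported count, or within 0.34 of the reported median, which is the median SD between probe sets of a gene, and 41 did not. Among the members, 2 were called higher with median, quantile and loess scaling, 0 were called lower under the higher floor (70th percentile), and the median was 2.12 with poly-A scaling. Of the other ligands and receptors, 2 were called higher and 0 lower with poly-A scaling (median 0.52), 3 higher and 2 lower with no floor (median 0.47), and 0 lower under the higher floor or without suffixed probe sets. Under the lower floor (30th percentile) their median was 0.47. Of the genes for release and processing, 1 was called lower with median, quantile or loess scaling and with the brightest probe set, 2 under the lower floor, and 2 higher and 2 lower with no floor (median 0.022). With poly-A scaling 2 were called higher (median 0.51), and under the higher floor 0. With poly-A scaling 11 of 25 signalling genes were called higher and 0 lower (median 0.88). That scaling called 45.6% of all measured genes higher and 1.77% lower (median 0.94). Of the signalling genes, 1 was called higher and 0 lower under the higher floor. There was 1 higher without suffixed probe sets, and 1 higher and 2 lower with the brightest probe set. Of the response genes, 4 were called higher and 7 lower with poly-A scaling (median -0.15), 1 higher and 6 lower under the higher floor (median -0.65), 5 higher with no floor and 1 higher without suffixed probe sets. The higher floor leaves fewer genes measured, 5 members and 17 response genes, and moves bounds toward 0. For poly-A scaling the cause was not tested. Over all genes, 506 were called higher and 438 lower under the higher floor, 1596 and 1017 under the lower one, 3077 and 2049 with no floor, and 5862 and 228 with poly-A scaling. In the same order these are 5.79% and 5.01%, 10.3% and 6.54%, 16.9% and 11.3%, and 45.6% and 1.77% of the genes measured. Signal over background limits what can be said of Il1a, Il1b and the inflammasome genes. No paired analysis was possible because each genotype has 1 array.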

Other observations

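Markers of other cell types that make or answer IL-1 family cytokines were in large part below the floor, with exceptions. For comparison, 12269 of the 18193 named genes were measured, and 8.01% of the measured genes were called higher and 5.93% lower. Of 9 neutrophil markers with a probe set 3 were measured and 0 called, and S100a8 and S100a9, abundant in neutrophils, were below the floor in both arrays. Of 10 markers of mast cells and lymphocytes, which respond to interleukin-33, 1 was measured, Gata3, which read 141 in the wild-type array and lay below the floor in the other. Of 10 endothelial markers 7 were below the floor in both, Pecam1, Kdr and Vwf among them, and Erg was at least 3.78-fold higher in Slc39a13-KO. The summed signals of the endothelial list were 459 for wild-type and 1441 for Slc39a13-KO, of which Erg alone gave 130 and 1065. Of 11 keratinocyte markers 5 were measured, with Trp63 called higher and Dsp called lower, while Krt5, Krt14 and Cdh1 were below the floor in both. Krt10 had 304 and 344 and Epcam 287 and 211, neither of them called. The summed signals of the keratinocyte list were 1348 and 1338. The part of these markers in the values of the members was not tested.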
